A study of Homo sapiens with 6 samples.

Results

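CDC42 is a small GTPase, and the CDC42EP proteins are effectors that bind its active form. The genes described here are the rows of the half-life table named CDC42 or CDC42EP1 to CDC42EP5. Of these 6 names, 5 were in the table of 7682 genes: CDC42, CDC42EP1, CDC42EP2, CDC42EP3 and CDC42EP4. The group was chosen by the values of CDC42EP1, whose half-life and total RNA stood out after MOV10 depletion in an earlier pass over the same values. The changes of CDC42EP1 between the conditions are therefore given as a description, with no test. The other members were included by name.

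CDC42 switches between a GDP-bound and a GTP-bound form. Exchange factors load it with GTP, GTPase-activating proteins (GAPs) return it to the GDP form, and GDP dissociation inhibitors hold it in the cytosol. Active CDC42 directs cell polarity and actin assembly through effectors such as the PAK kinases and the N-WASP protein, which acts through the Arp2/3 complex. The CDC42EP proteins, also called Borg proteins, bind active CDC42 through a CRIB motif and bind septins, which form filaments at the cell cortex. MOV10, the helicase depleted here, moves along mRNA and takes part in mRNA decay.

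The cells were HEK293, a human embryonic kidney line, either mock transfected or transfected with MOV10 siRNA. Both groups received 700 µM 4-thiouridine (4sU) for 60 min, a nucleoside that marks RNA made during that time. Poly(A)+ RNA was sequenced from total RNA, from the 4sU-labelled fraction and from the unlabelled flow-through, which gave 6 samples, 1 per fraction and condition. The mock control received no control siRNA that the labels name, so loss of MOV10 and the presence of an siRNA cannot be told apart. The table held 2 columns, replicates 1 and 2, for each of the 6 groups. Nothing says that these came from separate cultures, so p-values measure only the spread between the columns, which may be technical.

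The expression signal was normalised by the authors in a unit that the header does not name, and its depth is unknown. It may or may not be scaled to gene length, so levels are compared within a gene only. Half-lives were computed by the authors and are read here as minutes. Changes between conditions are log2 differences relative to the median gene, tested with limma over the 6064 genes whose mean total RNA value was 5 or more in both conditions, at a Benjamini-Hochberg adjusted p under 0.05. CDC42, CDC42EP1 and CDC42EP4 were above this minimum. CDC42EP2 and CDC42EP3 were below it and were tested in a fit over all 7682 genes. MOV10 total RNA was at 13.1 and 14.6 under mock conditions versus 3.53 and 3.64 with the siRNA. Of 18 markers of other cell types, 1 was in the table, the haemoglobin gene HBA1 (total RNA 14.5 and 18.5 for mock, 18.5 and 19.1 for siRNA), and of 10 genes reported in HEK293, 5 were in it.

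CDC42EP1 mRNA was lower in total and unlabelled RNA after MOV10 siRNA, and its newly made RNA was lower by less. Its total RNA signal was 55.9 and 70.4 in the mock columns and 18.6 and 16.8 in the siRNA columns. The means were 63.1 ± 10.3 and 17.7 ± 1.27 (SD, n = 2 columns), a level 3.57-fold lower. In flow-through RNA, the CDC42EP1 signal was 81.9 and 84.3 under mock conditions versus 18.0 and 22.2 with the siRNA, 4.14-fold lower. In both fractions all mock values lay more than the spread between columns above all siRNA values. Lower siRNA columns without overlap, relative to the median gene, occurred in 30.2% (total) and 36.7% (flow-through) of genes above the minimum. Labelled CDC42EP1 RNA was at 76.7 and 80.4 under mock conditions versus 75.3 and 64.2 with the siRNA, a mean 1.13-fold lower. Here the columns did not overlap, but 1 siRNA column lay close to the mock columns. Relative to the median gene, 30.5% of genes above the minimum had both labelled siRNA columns below both mock columns.

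On the log2 scale and with the median gene of each column set to 0, CDC42EP1 changed by -1.75 in total RNA (SE 0.09), -1.99 in flow-through RNA (SE 0.09) and -0.31 in labelled RNA (SE 0.10). Of the 6064 genes, 2 had a larger drop in total RNA, 4 in flow-through RNA and 582 in labelled RNA. The labelled value rests on which siRNA column is kept: it was -0.43 without MOV10 siRNA replicate 1 and -0.19 without MOV10 siRNA replicate 2. Without the scaling to the median gene it was -0.17. The ratio of labelled to total signal of CDC42EP1 was 1.37 and 1.14 under mock conditions versus 4.05 and 3.83 with the siRNA. Over all genes above the minimum, the median of that ratio was 0.575 and 0.512 under mock conditions versus 0.601 and 0.618 with the siRNA. For CDC42EP1 the numerator fell by less than the denominator did.

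**Figure D1:**
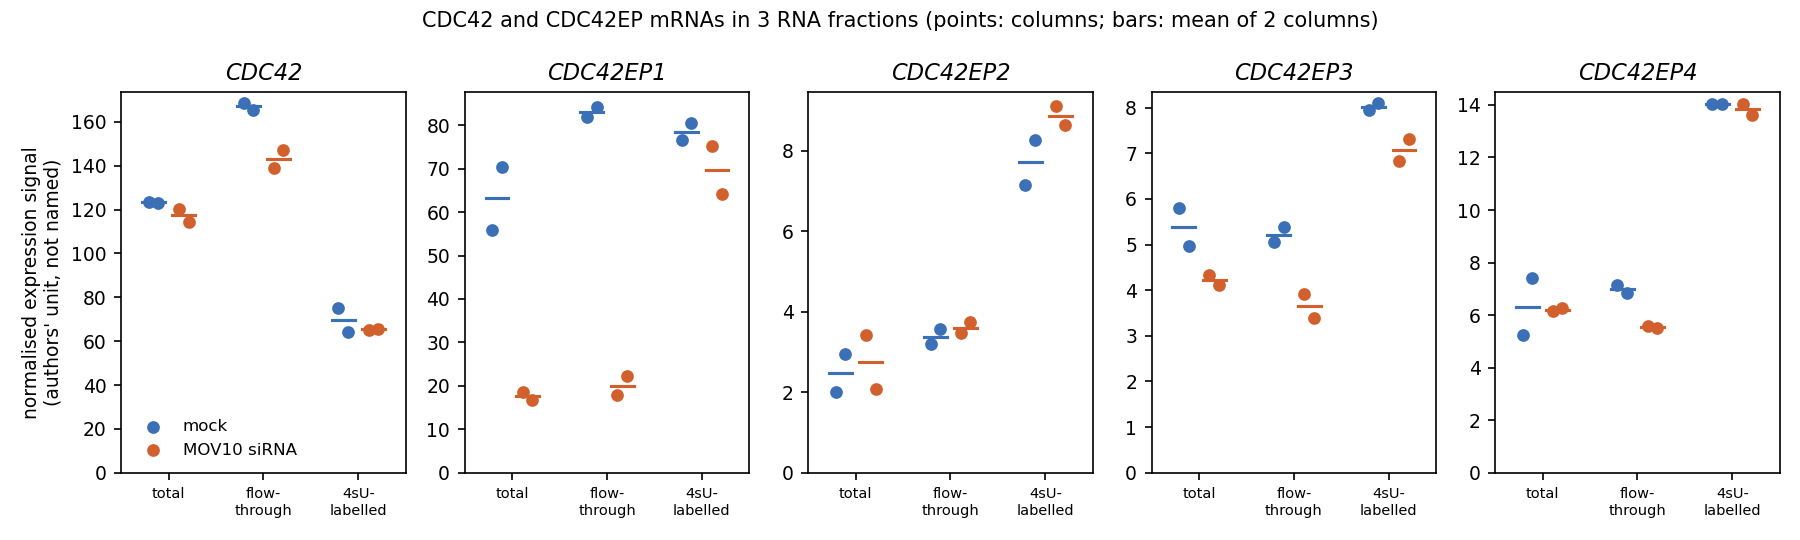
Normalised expression signal (vertical axis, the authors' unit, each panel on its own scale from 0) of the 5 genes in total, flow-through and 4sU-labelled RNA; points are the 2 columns of each group, bars their mean, blue for mock and orange for MOV10 siRNA. The siRNA columns of CDC42EP1 lie far below the mock columns in total and flow-through RNA and near them in labelled RNA, and no other panel has such a gap.

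The half-life of CDC42EP1 mRNA went from the longest of the 4 CDC42EP mRNAs in mock cells to the shortest after MOV10 siRNA. The authors' values were 268 and 269 min under mock conditions versus 83.4 and 142 min with the siRNA. The log2 change relative to the median gene was -1.50 (SE 0.13), and 2 of the 6064 genes had a larger drop. In the mock columns 13.0% and 11.9% of genes had a shorter half-life than CDC42EP1, and in the siRNA columns 1.63% and 2.54% did. The siRNA columns of CDC42EP1 differed more from each other than the mock columns did. The authors' half-lives of all genes shifted between these columns as well, with medians of 764 and 1030 min in siRNA against 742 and 810 min in mock. Half-lives were also recomputed from labelled and total RNA by 1 rule for all columns. For CDC42EP1 they were 256 and 297 min under mock conditions versus 67.3 and 67.7 min with the siRNA, a change of -1.79. Recomputed medians over genes above the minimum were 587 and 540 min in siRNA against 642 and 689 min in mock. The shift of all genes thus went the other way in the recomputed values. The place of CDC42EP1 among the 4 genes held in each of the authors' columns. In the recomputed values it did not hold in 1 column of each condition: CDC42EP3 was at 258 min in mock replicate 1, and CDC42EP2 was at 60.4 min in siRNA replicate 2.

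**Figure D2:**
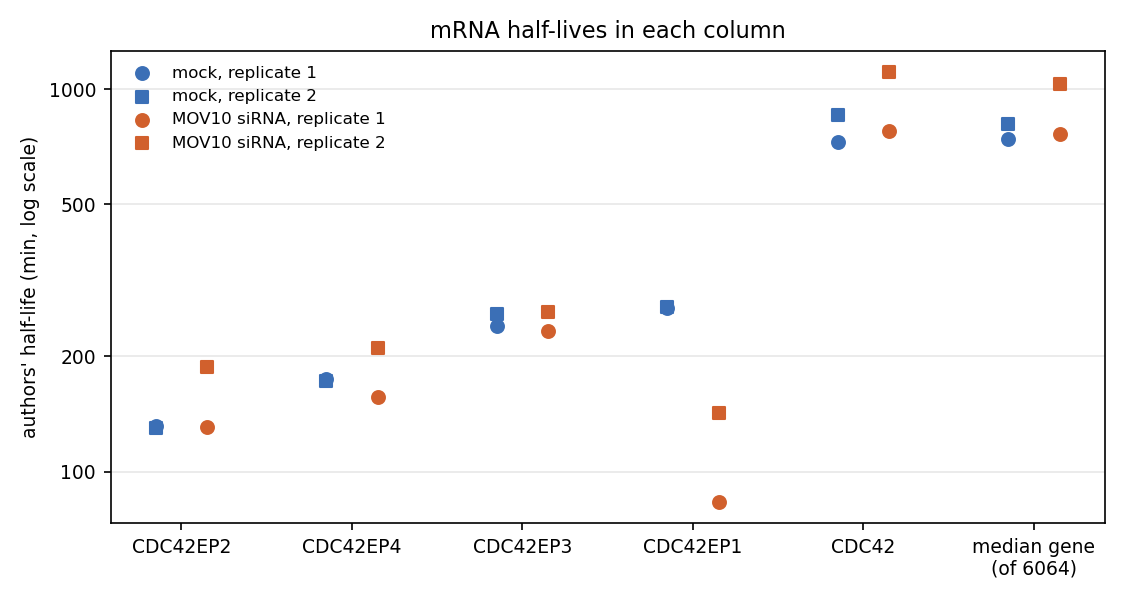
Authors' half-lives (vertical axis, minutes on a log scale) of the 5 genes and of the median of 6064 genes in each column; circles are replicate 1, squares replicate 2, blue mock and orange MOV10 siRNA. CDC42EP1 drops from 268 and 269 min to 83.4 and 142 min, while the siRNA columns of the other genes lie at or above their mock columns or overlap with them.

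In minutes, the half-lives of the other CDC42EP mRNAs overlapped between mock and siRNA columns. CDC42EP2 was at 132 and 130 min under mock conditions versus 131 and 188 min with the siRNA. CDC42EP3 was at 240 and 259 min under mock conditions versus 234 and 261 min with the siRNA. CDC42EP4 was at 174 and 172 min under mock conditions versus 156 and 210 min with the siRNA. In CDC42EP3 and CDC42EP4 the siRNA values spanned the mock values in minutes. Relative to the median gene of each column, both siRNA columns of these 2 genes lay below both mock columns. The same held for 27.3% of genes above the minimum, as CDC42EP4 is, and for 25.7% of all genes. CDC42EP2 had 1 siRNA value between its mock values and 1 above them. In mock, the values of CDC42EP2, CDC42EP4, CDC42EP3 and CDC42EP1 followed in this order without overlap. The gap between CDC42EP3 and CDC42EP1 was smaller than the spread between the columns of CDC42EP3.

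Relative to the median gene, the half-life change of CDC42EP4 was -0.13, with a 95% interval of -0.36 to 0.10 (limma, Benjamini-Hochberg adjusted p = 0.451). Those of CDC42EP2 and CDC42EP3 in the fit without a minimum were 0.08, from -0.20 to 0.36 (limma, adjusted p = 0.718), and -0.19, from -0.50 to 0.11 (limma, adjusted p = 0.407). In these fits 4.27% of genes above the minimum were called lower and 1.88% higher, and 3.92% of all genes were called either way. None of the 3 intervals reaches the change of CDC42EP1, but no conclusion is drawn from this, because CDC42EP1 was chosen for its drop. For the same reason the difference from CDC42EP1 was not tested. The direction of CDC42EP4 is not settled, since it was 0.07 without the scaling to the median gene and 0.19 in recomputed half-lives.

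CDC42EP3 and CDC42EP4 were lower in unlabelled RNA after siRNA, and CDC42EP3 also in labelled RNA. Flow-through CDC42EP3 RNA was at 5.05 and 5.38 under mock conditions versus 3.92 and 3.38 with the siRNA. Flow-through CDC42EP4 RNA was at 7.15 and 6.85 under mock conditions versus 5.60 and 5.51 with the siRNA. In both genes the siRNA columns lay below the mock columns. Relative to the median gene, so did those of 35.8% of all genes and 36.7% of genes above the minimum. The changes were -0.39 for CDC42EP3 (limma over all genes, adjusted p = 0.0141) and -0.27 for CDC42EP4 (limma, adjusted p = 0.0169). Lower calls in flow-through RNA made up 25.2% of all genes and 26.8% of those above the minimum, so such a call was common. The call on CDC42EP4 was lost without mock replicate 1 (limma, adjusted p = 0.0794), without mock replicate 2 (0.0517) or without MOV10 siRNA replicate 2 (0.0632). The call on CDC42EP3 was lost without mock replicate 2 (limma, adjusted p = 0.0667) or MOV10 siRNA replicate 2 (0.0525).

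Total CDC42EP3 RNA was at 5.81 and 4.97 under mock conditions versus 4.33 and 4.12 with the siRNA, a change of -0.27 that did not pass (limma over all genes, adjusted p = 0.0926), where 24.9% of genes did. Without mock replicate 2 it did pass, at -0.40 (limma, adjusted p = 0.0306). Labelled CDC42EP3 RNA was at 7.94 and 8.11 under mock conditions versus 6.84 and 7.32 with the siRNA. Its change of -0.28 passed (limma, adjusted p = 0.0392), as did 11.2% of all genes in this direction. It did not pass with any 1 of the 4 columns left out (limma, adjusted p from 0.0517 to 0.251) or without the scaling to the median gene, where it was -0.16 (limma, adjusted p = 0.222). Total CDC42EP4 RNA was at 5.25 and 7.40 under mock conditions versus 6.17 and 6.25 with the siRNA, and labelled CDC42EP4 RNA at 14.0 and 14.0 against 14.1 and 13.6. Neither passed (limma, adjusted p = 0.950 and 0.194).

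CDC42EP2 did not pass in any of the 3 fractions. Its total RNA was at 2.01 and 2.96 under mock conditions versus 3.43 and 2.08 with the siRNA, so that the columns of 1 group enclosed values of the other. Flow-through CDC42EP2 RNA was at 3.20 and 3.56 under mock conditions versus 3.46 and 3.73 with the siRNA. Labelled CDC42EP2 RNA was at 7.15 and 8.26 under mock conditions versus 9.10 and 8.64 with the siRNA. The changes were 0.12, 0.10 and 0.06 (limma over all genes, adjusted p = 0.634, 0.387 and 0.701). These are low values, and the 95% interval of the total RNA change ran from -0.24 to 0.48.

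CDC42, the GTPase that the CDC42EP proteins bind, showed no change past the test in total RNA or half-life. Its total RNA signal was 124 and 123 under mock conditions versus 120 and 114 with the siRNA, a change of -0.05 with a 95% interval of -0.19 to 0.08 (limma, adjusted p = 0.597). The CDC42 half-life read 728 and 858 min under mock conditions versus 778 and 1107 min with the siRNA, a change of 0.04 from -0.18 to 0.26 (limma, adjusted p = 0.840). The half-life columns overlapped between the conditions. In flow-through RNA CDC42 was lower, at 168 and 166 under mock conditions versus 139 and 147 with the siRNA. That change of -0.21 passed the test (limma, adjusted p = 0.00475) and did so in all 11 alternatives that were run. Of the 6064 genes, 24.6% had a larger drop there. Labelled CDC42 RNA was at 75.0 and 64.4 under mock conditions versus 64.9 and 65.7 with the siRNA, a change of -0.22 that did not pass (limma, adjusted p = 0.0715) except with a minimum of 20 (limma, adjusted p = 0.0422). CDC42 has close copies in the genome, and how the counting treated reads that match several copies is not known here.

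**Figure D3:**
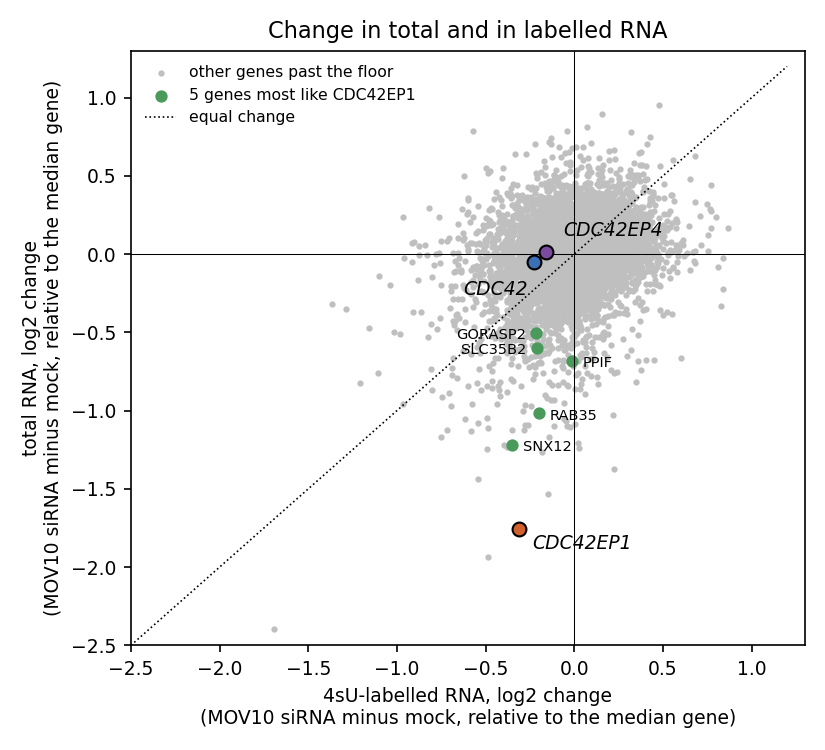
Log2 change in total RNA (vertical axis) against that in 4sU-labelled RNA (horizontal axis), MOV10 siRNA minus mock and relative to the median gene, for 6064 genes (grey); the dotted line marks equal change. CDC42EP1 lies at -1.75 in total and -0.31 in labelled RNA, below the line, CDC42 and CDC42EP4 lie near the centre, and the 5 genes with the most similar profile (green) have total RNA changes from -1.22 to -0.50, between those of CDC42EP1 and CDC42.

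In mock cells the 4 effector mRNAs were higher in labelled than in flow-through RNA relative to the median gene, and CDC42 was lower. The members other than CDC42EP1 were not chosen by this contrast of labelled with flow-through RNA in mock cells. The half-lives that chose CDC42EP1 draw on the same libraries, so its value is given with no test. CDC42EP1 was higher in labelled RNA by 0.81 relative to the median gene, and CDC42EP4 by 1.80 (limma, adjusted p = 2.9e-07). CDC42EP2 was higher by 1.79 and CDC42EP3 by 1.34 in the fit over all genes (limma, adjusted p = 9.7e-07 and 1.0e-06). The median of the gene-wise differences above the minimum was itself -0.30 on this scale. Such calls were frequent, at 33.2% of genes above the minimum and 38.1% of all genes. CDC42 was lower in labelled RNA, by -0.36 (limma, adjusted p = 0.00078), as were 54.6% of genes, and lay near that median. With a minimum of 20, which moves the median gene, CDC42 was at 0.08 and did not pass (limma, adjusted p = 0.237). Without scaling CDC42EP1 was at -0.08, its labelled and flow-through signals in mock being nearly equal.

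The ratio of labelled to flow-through signal shows the same contrast per column. For CDC42EP1 it was 0.936 and 0.954 under mock conditions versus 4.19 and 2.90 with the siRNA. For CDC42EP2 it was 2.23 and 2.32 under mock conditions versus 2.63 and 2.31 with the siRNA, and for CDC42EP3 1.57 and 1.51 against 1.74 and 2.16. For CDC42EP4 it was 1.96 and 2.05 under mock conditions versus 2.51 and 2.47 with the siRNA. CDC42 was at 0.446 and 0.389 under mock conditions versus 0.467 and 0.447 with the siRNA, close to the median of all genes at 0.419 and 0.401 under mock conditions versus 0.459 and 0.460 with the siRNA. In this ratio CDC42EP1 was thus the lowest of the 4 effectors in mock and the highest after siRNA in both columns. The ratio of labelled to total signal did not keep this order throughout. In mock replicate 1 CDC42EP3 was at 1.366 and CDC42EP1 at 1.372. In MOV10 siRNA replicate 2 CDC42EP2 was at 4.15 and CDC42EP1 at 3.83.

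The transcripts of the 5 genes differ in sequence. The longest annotated 3' UTR (GENCODE v29) of CDC42EP1 has 585 bases and a GC content of 62.7%, against medians of 1370 bases and 42.4% in the 5669 genes above the minimum with an annotation. Of these genes, 96.3% had a 3' UTR of lower GC content and 24.8% a shorter one. The 3' UTR of CDC42EP2 has 898 bases and 60.9% GC, that of CDC42EP4 1806 bases and 52.8%, that of CDC42 1429 bases and 38.6%, and that of CDC42EP3 3941 bases and 37.9%. The AU-rich pentamer ATTTA occurred 6 times in the 3' UTR of CDC42EP3, 2 times in that of CDC42EP4 and 1 time in that of CDC42. CDC42EP1 and CDC42EP2 had 0 there, while 73.9% of genes have at least 1. The Pumilio-type motif TGTANATA occurred 1 time in the 3' UTR of CDC42EP3 and in none of the others, against 29.8% of genes.

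The 7-base sequence TACTGCA is shown because an earlier pass over these data found it in the 3' UTRs of many mRNAs that lost stability after this siRNA. CDC42EP1 has 0 copies in its 3' UTR and 2 in its coding sequence, and CDC42EP3 has 1 in its 3' UTR. CDC42 has 1 copy in its coding sequence, with an exon junction in the copy or in the 10 bases on either side. CDC42EP2 and CDC42EP4 have none in the 3' UTR or the coding sequence. Only the transcript strand was searched. The copies of CDC42EP1 start at bases 702 and 744 of the coding sequence, counted from 1 at the start codon, and lie on GRCh38 at chr22:37568336-37568362 and chr22:37568378-37568404, plus strand. That of CDC42EP3 starts at base 3036 of the 3' UTR, counted from 1 after the stop codon, at chr2:37642771-37642797, minus strand. Each is printed 5′ to 3′ with 10 bases on either side and the match in capitals.
CDC42EP1, coding, first: ccccagccccTACTGCAaaccccacgg
CDC42EP1, coding, next: ccccagccacTACTGCAaaccccccag
CDC42EP3, 3' UTR: ccttctatatTACTGCAagtgacctgt

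TACTGCA lies in the 3' UTR of 667 of the 5669 genes (11.8%) and in the coding sequence of 638 (11.3%). Half-lives were called lower in 97 of the 667 (14.5%, median change -0.06). Where it lies in the coding sequence and not in the 3' UTR, 37 of 547 were called lower (6.76%, median -0.06), and where it lies in neither, 117 of 4455 (2.63%, median 0.01). The 37 include CDC42EP1, which was chosen for its drop. CDC42EP1 was among 57 genes with 2 or more copies in the coding sequence and none in the 3' UTR. In these 57 the median half-life change was -0.09. CDC42EP1 is set aside here because it was chosen for its drop, and none of the others was called lower. After CDC42EP1, the largest drop among the 57 was that of CIZ1, at -0.50 (limma, adjusted p = 0.0575). CDC42EP3, with its copy in the 3' UTR, had the half-life change of -0.19 given above. These counts are a description, since the sequence was found on the same half-lives.

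Of the genes that load, switch off and hold CDC42, 2 GAPs had half-lives past the test. The shares to read the counts of half-lives against are the 4.27% lower and 1.88% higher over all genes above the minimum. Of 9 exchange factors above the minimum, 0 half-lives passed in either direction (limma), with a median of -0.03. PLEKHG2 had the largest drop among them, at -0.21 (limma, adjusted p = 0.257), and DOCK11 the largest rise, at 0.10 (limma, adjusted p = 0.634). Of 8 GAPs, 2 were lower and 0 higher, against those shares, with a median of -0.15 where all genes had 0.00. ARHGAP17, a GAP of cell junctions, went from 932 and 1140 min to 732 and 806 min, a change of -0.62 (limma, adjusted p = 0.0380). ABR, which acts on RAC and CDC42, went from 830 and 856 min to 581 and 800 min, a change of -0.50 (limma, adjusted p = 0.0270). Both were also lower in total RNA, at -0.48 and -0.39 (limma, adjusted p = 0.00092 and 0.0041), as were 14.3% of genes. ARHGAP17 passed in half-life in 1 of 4 fits with a column left out, the one without MOV10 siRNA replicate 1, and ABR in 0 of 4 (limma, adjusted p up to 0.161 and 0.151). Without the scaling to the median gene neither passed (limma, adjusted p = 0.891 for both), and without a minimum ARHGAP17 did not pass (0.0626). In labelled RNA ARHGAP17 rose by 0.33 (limma, adjusted p = 0.0318), as did 9.88% of genes.

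Of the 2 GDP dissociation inhibitors, ARHGDIG went from 1803 and 1918 min to 2813 and 3192 min, a change of 0.49 that did not pass (limma, adjusted p = 0.0617) except without MOV10 siRNA replicate 2 (0.0487). Labelled ARHGDIG RNA fell by 0.47 (limma, adjusted p = 0.0174), as 11.5% of genes did. ARHGDIA was at 557 and 577 min under mock conditions versus 495 and 744 min with the siRNA (limma, adjusted p = 0.574).

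Of 12 other CDC42 effectors above the minimum, 1 was lower in half-life and 0 higher, where 4.27% and 1.88% of all genes were, with a median of -0.01. That gene was PAK4, a p21-activated kinase that acts on actin turnover, which went from 687 and 694 min to 403 and 521 min. Its change was -0.79 (limma, adjusted p = 0.0085), and its siRNA half-lives did not overlap with those in mock. Such a gap was common: relative to the median gene, 27.3% of genes above the minimum had both siRNA half-lives below both mock ones. Total PAK4 RNA went from 33.3 and 39.3 to 24.1 and 23.8, a change of -0.56 (limma, adjusted p = 0.00013). The half-life call did not pass without mock replicate 1 (limma, adjusted p = 0.0604) or without the scaling to the median gene, where it was -0.59 (limma, adjusted p = 0.891). PAK4 has 1 TACTGCA in its 3' UTR. In total RNA 1 of the 12 was higher and 1 lower, where 12.9% of genes were called higher and 14.3% lower.

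Of 5 septins, 0 half-lives passed (limma), with a median of 0.05 and changes from -0.01 for SEPT9 to 0.24 for SEPT10. SEPT10 total RNA was at 11.0 and 10.8 under mock conditions versus 13.6 and 13.5 with the siRNA, a rise of 0.30 (limma, adjusted p = 0.0141) that passed in 1 of 4 fits with a column left out, the one without mock replicate 1. Of 7 Arp2/3 genes, 0 half-lives passed, with a median of -0.11. In total RNA 3 of the 7 were lower and 1 was higher, against 14.3% and 12.9% of all genes. ARPC1B went from 18.9 and 21.5 to 9.92 and 11.2 (-0.86, limma, adjusted p = 1.2e-05), and ACTR3B from 9.63 and 11.3 to 13.5 and 13.5 (0.36, limma, adjusted p = 0.0058).

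**Figure D4:**
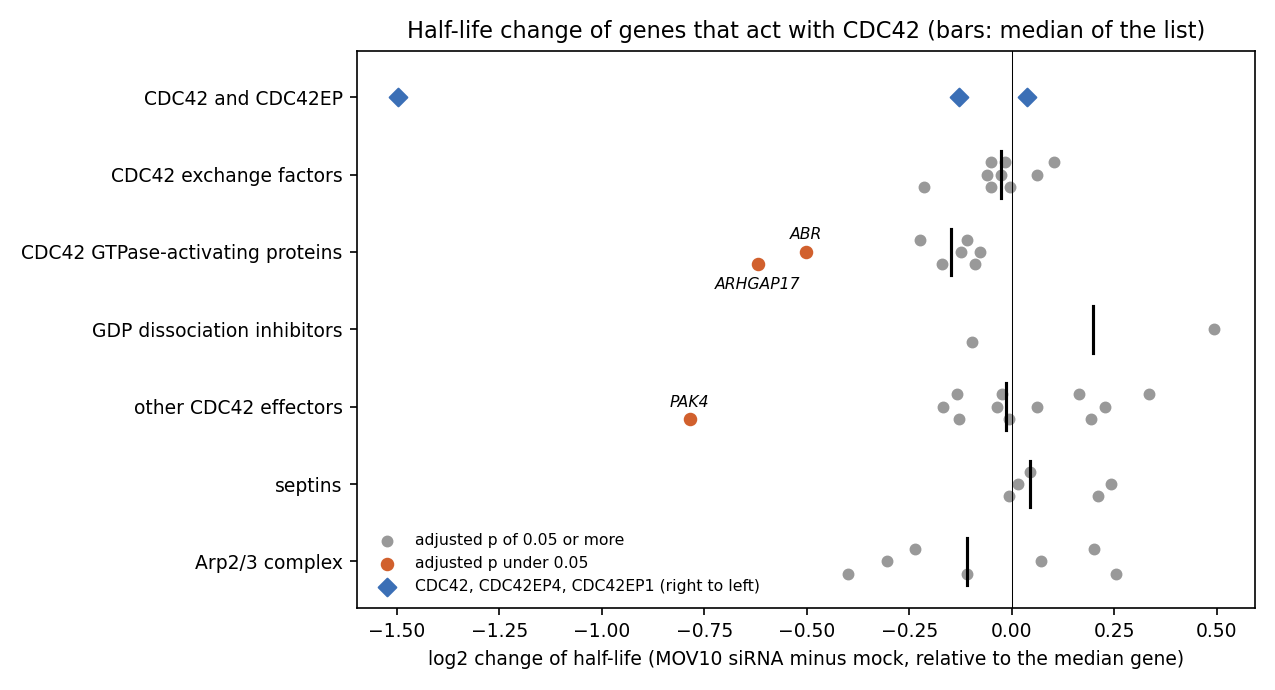
Log2 half-life change (horizontal axis, MOV10 siRNA minus mock, relative to the median gene) of genes that act with CDC42, by list; each point is a gene, black bars are list medians, orange marks genes with an adjusted p under 0.05 (limma), and diamonds are CDC42, CDC42EP4 and CDC42EP1. CDC42EP1 at -1.50 lies left of PAK4 at -0.79, ARHGAP17 at -0.62 and ABR at -0.50.

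The genes most like CDC42EP1 over the 12 expression columns were RAB35 (Pearson r 0.992), PPIF (0.988), SLC35B2 (0.987), SNX12 (0.982) and GORASP2 (0.981), where the median r over all genes was -0.44. The columns come in pairs from 6 groups, and the likeness includes the drop that chose CDC42EP1, so these values are a description. RAB35 encodes a small GTPase of endosome recycling, PPIF a mitochondrial cyclophilin and SNX12 a sorting nexin. RAB35 total RNA went from 27.7 and 33.1 to 15.0 and 13.5, and SNX12 from 25.4 and 25.8 to 11.6 and 9.09. The total RNA changes of the 5 genes ran from -1.22 for SNX12 to -0.50 for GORASP2, smaller than that of CDC42EP1. Their half-life changes ran from -1.10 for SNX12 to -0.46 for GORASP2, and their labelled changes from -0.35 for SNX12 to -0.01 for PPIF. TACTGCA lies in the 3' UTRs of RAB35 and SLC35B2 and in the coding sequence of GORASP2, and in neither of PPIF and SNX12.

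The genes most like CDC42 were MYEOV2 (0.980), GLO1 (0.978), TSPAN6 (0.977), RHEB (0.976) and SFT2D1 (0.975), where the median r was 0.55. Their half-life changes lay between -0.20 for SFT2D1 and 0.26 for TSPAN6. With CDC42EP1, CDC42 had an r of -0.39 and CDC42EP4 one of 0.74, over the same 12 columns. The median r of all genes with CDC42EP1 was -0.44, so CDC42 lay near that median.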

How the data were processed

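Per the labels' protocols, RNA was biotinylated at 4sU, split on streptavidin beads and made into poly(A)+ TruSeq libraries. The submitters' processing notes name TopHat2 2.06 and build hg18. Which tool gave the expression signal is not stated in them. The expression signal was deposited as normalised by the authors, with no unit in the header and no value below 1. The half-lives, of another unit that the header does not name, were computed by the authors with a published method, per the labels' protocols. They are read as minutes because half-lives recomputed from labelled and total RNA over 60 min, with labelled weights of 0.109 to 0.120 fitted by total least squares over total, labelled and flow-through RNA, correlated with them over genes (Pearson r 0.948 to 0.970 on the log2 scale), with medians of 540 to 689 min.

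limma 3.58.1 in R 4.3.3 compared 2 columns with 2 on log2(signal + 1) or log2 half-life, after subtracting each column's median gene, with a mean-variance trend. It was checked on simulated data. Fold changes on log2(signal + 1) understate the change of low genes. Both columns of a group correlated at a Spearman coefficient of 0.981 to 0.996. The uncentred median change was 0.20 for the authors' half-lives, -0.01 for total RNA, 0.14 for labelled RNA and 0.02 for flow-through RNA. Members, gene lists, the TACTGCA search and tests were chosen with earlier results of these data known. Other genes were named by rule: the 5 most like CDC42EP1 and CDC42, and in each list those that passed in half-life or, with none, the extremes. Dates had replaced 10 symbols of the deposited table, and 5 could be only septins (SEPT2, SEPT3, SEPT9, SEPT10 and SEPT11). Alternatives covered scaling, the minimum, the added 1, the trend, a replicate block, recomputed half-lives and each column left out. 3' UTRs (of 20 bases or more) and coding sequences are each the longest per gene in GENCODE v29 (GRCh38), not the authors' build. Coding sites are printed and numbered on the transcript with the longest 3' UTR. A list of related GTPases is not reported here.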

Additional observations from a re-analysis of the deposited data

How the results depend on the processing

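For CDC42EP1, the half-life change ran from -1.79 to -1.30, total RNA from -1.88 to -1.56 (the latter with 5 added to the signal) and flow-through RNA from -2.12 to -1.80 over all alternatives run. The cause was not tested where other values moved, except that fits with a column left out, or with a minimum of 20 (2603 genes tested), use fewer data.

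Counts of called genes moved as follows. Half-life calls (114 higher, 259 lower) became 2 and 5 without centring, 63 and 94 with a minimum of 20, 21 and 118 with the replicate block, and 456 and 467 in recomputed half-lives. Total RNA (783 higher, 868 lower) gave 451 higher without centring, and 353 and 310 with the minimum of 20. Labelled RNA (599 and 700) gave 1641 and 333 without centring, and 252 and 320 with the minimum of 20. Flow-through RNA (1925 and 1626) gave 923 and 744 with that minimum. Labelled against flow-through RNA in mock (2016 and 3311) gave 819 higher without centring, and 831 and 1460 with that minimum. With 1 column left out, half-life calls ranged from 1 to 75 higher and from 48 to 173 lower, total RNA from 322 to 834 and from 534 to 931, and labelled RNA from 379 to 498 and from 447 to 647.

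In the mock contrast of labelled with flow-through RNA, CDC42 (0.075, minimum of 20; called lower as reported) and CDC42EP1 (-0.081, no centring; not tested) changed sign. The other values that changed sign were not called as reported. In half-life they were CDC42 (-0.019 without mock replicate 1, -0.0029 without MOV10 siRNA replicate 2, up to 0.093 without mock replicate 2), CDC42EP4 (0.066 without centring, 0.19 recomputed), DOCK11 (-0.0070 recomputed), ARHGDIA (0.10 without centring, 0.063 recomputed) and SEPT9 (0.19 without centring, 0.0087 without a minimum, 0.02 without mock replicate 1, 0.075 without MOV10 siRNA replicate 1, down to -0.087 without MOV10 siRNA replicate 2, 0.031 recomputed). In total RNA they were CDC42EP2 (-0.04 without mock replicate 1, -0.13 without MOV10 siRNA replicate 1, up to 0.37 without MOV10 siRNA replicate 2), CDC42EP4 (-0.0068 without centring, -0.16 without mock replicate 1, -0.0058 without MOV10 siRNA replicate 2), ARHGDIA (-0.061 without mock replicate 1, 0.21 and called without mock replicate 2) and SEPT9 (0.15 without mock replicate 2, 0.05 without MOV10 siRNA replicate 1). Among the genes most like CDC42, given with no test, MYEOV2 (-0.035 without mock replicate 1, -0.055 without MOV10 siRNA replicate 1), RHEB (-0.031 without mock replicate 1) and SFT2D1 (0.13 recomputed) changed sign in half-life, and TSPAN6 (-0.0086 without mock replicate 2) in total RNA. Labelled CDC42EP2 ran from -0.062 without mock replicate 1 to 0.18 without mock replicate 2.

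The labels give no replicate numbers. Differences between columns 1 and 2 correlated between mock and siRNA at -0.07 for half-lives and 0.04 for total RNA. For labelled RNA the correlation was -0.03 and for flow-through RNA 0.11. Between labelled and flow-through RNA in mock it was 0.10. The main tests therefore did not pair columns by number, while the ratios and recomputed half-lives matched fractions of the same number. In the mock contrast of labelled with flow-through RNA, the calls on CDC42, CDC42EP2, CDC42EP3 and CDC42EP4 held with the replicate block. With the replicate block, CDC42EP3 was at an adjusted p of 0.0882 in labelled and 0.0448 in total RNA, and ARHGAP17 and ABR at 0.0793 and 0.0674 in half-life (limma). Depth is unknown, so no counting interval is given.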
